A study of Homo sapiens with 10 samples.

Results

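The 2 HCT116 lines labelled as ORC2 mutants, ORC2B2 and ORC2BP8, were compared with each other, to ask how far lines with the same mutated gene differ in gene expression. Their arrays were found by title: 2 of ORC2B2 and 2 of ORC2BP8, which is 4 of the 10 arrays of the series, and values were also set side by side within replicate 1 and within replicate 2. HCT116 is an established human colorectal carcinoma line. The other 6 arrays, 2 each, came from the wild-type line (WT) and the ORC1 mutants ORC1B14 and ORC1BP32, and served to estimate the spread and to place both ORC2 lines. All lines were untreated and grown at 37 °C in 5% CO2, and labelled RNA was hybridised to Affymetrix arrays. For the ORC2 lines the labels give neither the kind of mutation nor whether a line is a single clone, and it is also not given whether a line's replicates were separate cultures. The p-values below therefore measure the spread between these arrays, which may be technical.

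ORC2 encodes a subunit of the origin recognition complex. This complex marks the sites where DNA replication begins and, with CDC6 and CDT1, loads the MCM helicase onto DNA before S phase. HCT116 cells are epithelial and carry genes of cell junctions and simple keratins, as colon epithelium does.

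Values are deposited log2 expression values, so that a difference of 1 is read as 2-fold. The log base is stated in no label and was taken from the range of the values. The 10797 genes tested had a probe set that reached its array's median signal on 2 or more arrays. ORC2 itself was not analysed here, because none of ORC1 to ORC6 (0 of 6) had a named probe set, so the labels could not be checked against it. Of 13 colorectal epithelial markers named on the array, 11 lay above the array median on all 4 ORC2 arrays, and CEACAM5 and CEACAM6 lay below it. Of markers of other cells, 1 of 3 for fibroblasts, 4 of 6 for blood cells, 5 of 11 for liver and kidney lines and 4 of 13 for lung and breast lines also lay above it on all 4 arrays. A value above the array median therefore does not by itself mark a cell type. Array medians were 3.94 and 3.95 for the ORC2 lines in replicate 1 and 3.88 and 3.87 in replicate 2. Over all probe sets the replicates correlated at 0.982 in ORC2B2 and 0.979 in ORC2BP8, and the lines at 0.987 within replicate 1 and 0.985 within replicate 2. Arrays with the same replicate number were thus closer than arrays of the same line.

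Between the ORC2 lines 24 genes were called, at a limma adjusted p under 0.05 over all genes tested. They make up 0.222% of the genes tested. ORC2B2 was the higher line for 15 of them (0.139%) and the lower line for 9 (0.0834%). YBX1, a cold-shock protein that binds mRNA, was the furthest lower in ORC2B2, followed by the microRNA gene MIR4527, the heparan sulfatase gene SULF2 and the epithelial genes GRHL2 and DSC3. CRNDE, a long non-coding RNA, the necroptosis gene MLKL and the metallothionein MT1F were the furthest higher. Each of the 24 differed in the same direction within both replicates and by at least 2-fold on average. At an unadjusted p under 0.05, 589 genes passed (5.46%), 325 of them higher (3.01%) and 264 lower (2.45%) in ORC2B2. That is close to the share this threshold passes when no gene differs, so the count does not by itself show differences. Over all genes tested, 26.9% were higher and 28.3% lower in ORC2B2 in both replicates, and for 32.3% the arrays of the lines did not overlap. A lack of overlap, where given below, therefore does not by itself set a gene apart. A difference of at least 2-fold in the same direction in both replicates was seen for 62 genes (0.574%).

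**Figure D1:**
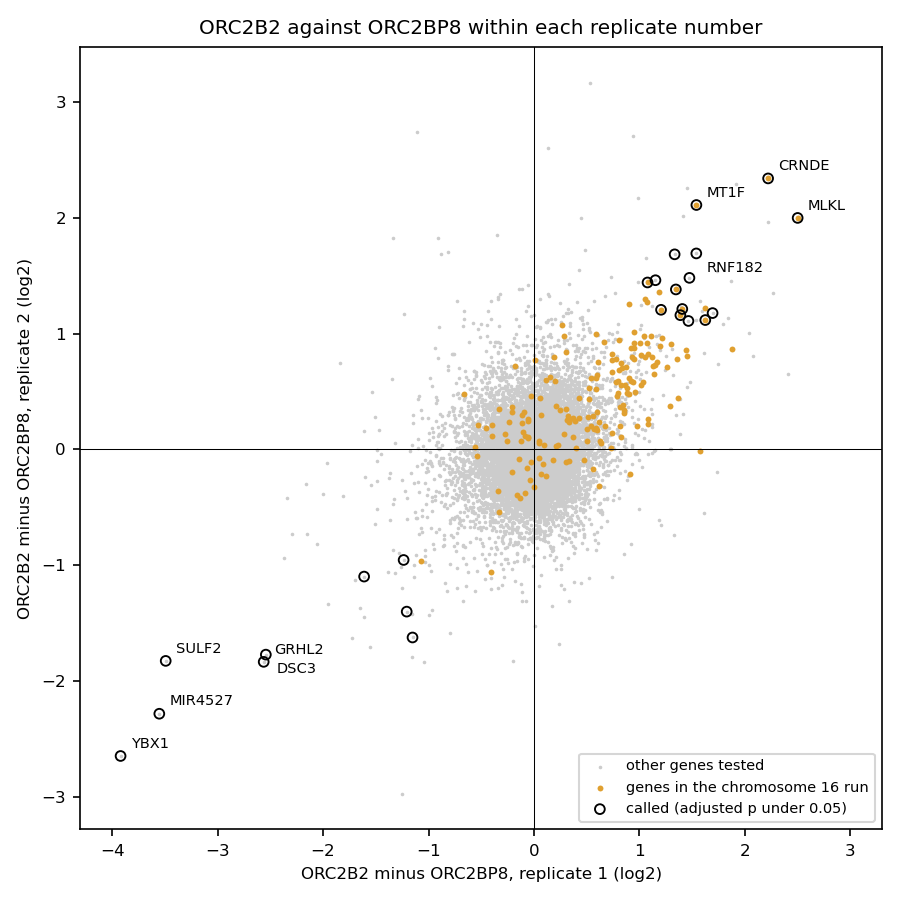
Each point is 1 of 10797 genes, with its ORC2B2 minus ORC2BP8 difference (log2) in replicate 1 on the x axis and in replicate 2 on the y axis. Circles mark the 24 called genes, which all lie to the upper right or lower left of the zero lines, and orange points are the 178 genes of a run on chromosome 16, most of which lie in the upper right.

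The number of calls rested on the arrays and the fit used. With only the 4 ORC2 arrays in the limma fit 0 genes were called (547 at an unadjusted p under 0.05, smallest adjusted p 0.0891). With the replicate number as a block, the same 4 arrays gave 257 calls and all arrays gave 94, each time with all 24. The block was not adopted, for the reason given with the processing, where genes it added are named. The fits that follow are without it. Of the 24 calls, 6 were kept without ORC2B2 replicate 1, 5 without ORC2B2 replicate 2, 2 without ORC2BP8 replicate 1 and 4 without ORC2BP8 replicate 2, while 16 to 21 were kept without any 1 of the other 6 arrays.

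YBX1 (chromosome 1) stood at 7.54 and 9.20 on the ORC2B2 arrays and at 11.46 and 11.85 on the ORC2BP8 arrays. The ORC2B2 arrays were both low, replicate 1 more so, and the lines did not overlap. The difference was -3.28 (SE 0.39, limma adjusted p = 0.00817), or 9.73-fold. In the other 3 lines YBX1 lay between 11.58 and 11.90, so that ORC2B2 lay below these 6 arrays and ORC2BP8 reached into their range. YBX1 is known to have processed pseudogenes, and whether its probes also bind their transcripts was not tested. Of 15 tested genes of cold-shock and other mRNA-binding proteins, YBX1 was the 1 called. IGF2BP3, which also binds mRNA, stood at 5.54 and 7.36 in ORC2B2 and 7.53 and 7.75 in ORC2BP8. Its difference of -1.19 came mostly from replicate 1 (-2.0, against -0.39 in replicate 2) and was not called (limma adjusted p = 0.931). YBX1 lost its call without either ORC2BP8 array.

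SULF2 encodes an enzyme that removes sulfate groups from heparan sulfate outside the cell. Its probe set stood at 3.75 and 4.60 in ORC2B2 and at 7.24 and 6.42 in ORC2BP8, a difference of -2.66 (SE 0.31, limma adjusted p = 0.00817). Both ORC2BP8 arrays were high and lay above the other 3 lines, which ranged from 4.38 to 5.00. A dimmer probe set of the same gene did not follow: it stood at 4.13 and 3.97 in ORC2B2 and 3.51 and 4.02 in ORC2BP8, a difference of 0.29. The brighter 1 of these probe sets stood for the gene, and the call was lost without ORC2BP8 replicate 1.

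GRHL2, a transcription factor that maintains epithelial gene expression, stood at 4.86 and 5.19 in ORC2B2 and at 7.42 and 7.02 in ORC2BP8. The difference was -2.20 (SE 0.25, limma adjusted p = 0.00777). ORC2B2 was low and lay below the other 3 lines (5.80 to 7.74), and ORC2BP8 lay within their range. DSC3, a cadherin of desmosomes, stood at 4.10 and 4.69 in ORC2B2 and at 6.64 and 6.46 in ORC2BP8, a difference of -2.16 (SE 0.24, limma adjusted p = 0.00777). Here too ORC2B2 was the low line, but the other 6 arrays spread from 3.80 to 7.14 and took in all 4 ORC2 values. GRHL2 lost its call without ORC2B2 replicate 1 or ORC2BP8 replicate 1, and DSC3 without either ORC2BP8 array.

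ULK2, a kinase that acts at the start of autophagy, stood at 4.92 and 4.99 in ORC2B2 and at 6.53 and 6.09 in ORC2BP8. Its difference was -1.35 (SE 0.20, limma adjusted p = 0.0251), and the lines lay on opposite sides of the other 6 arrays (5.23 to 6.02). UTS2, which encodes the vasoactive peptide urotensin 2, stood at 3.58 and 3.51 against 4.79 and 4.91, a difference of -1.30 (limma adjusted p = 0.0251). Both ORC2B2 values lay below the array median, which UTS2 reached on only 4 arrays of the series, so it was dim on most arrays. ORC2BP8 was the line that lay outside the other 6 arrays, above them. DAPK1, a calcium/calmodulin-regulated kinase linked to cell death, stood at 3.88 and 4.13 in ORC2B2 and at 5.12 and 5.08 in ORC2BP8. Its difference was -1.09 (limma adjusted p = 0.0327), with the ORC2BP8 arrays above the range of the other 3 lines (3.94 to 4.60). These 3 genes lost their calls without any 1 of the ORC2 arrays, and DAPK1 also without any 1 of the other 6.

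The remaining 2 called genes that were lower in ORC2B2 are microRNA genes on chromosome 18. A microRNA pairs with its target mRNAs mainly through its seed, bases 2 to 8. The mature sequences, from RefSeq (GRCh38.p14), are shown so that their seeds, in capitals, can be compared. Both lie on the plus strand, the first at chr18:47380503-47380524 and the second at chr18:13611167-13611188.
hsa-miR-4527: uGGUCUGCaaagagaugacugu
hsa-miR-4526: gCUGACAGcagggcuggccgcu
The seeds differ, so the genes are not of 1 seed family. The array reported a transcript that carries each gene's name, and the mature microRNA itself was not measured.

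MIR4527 stood at 2.23 and 2.74 in ORC2B2 and at 5.78 and 5.02 in ORC2BP8. ORC2BP8 was the high line: both ORC2B2 values lay below the array median, as did those of the other 3 lines (2.24 to 2.47). The difference was -2.92 (SE 0.25, limma adjusted p = 0.00177). MIR4527 passed the filter on dim probe sets only through the 2 ORC2BP8 arrays, so the size of this difference is set against a dim signal and the gene had to differ to be tested. The filter was not run again when 1 array was left out. Without either ORC2BP8 array MIR4527 would not have passed it, so the left-out fits cannot show whether its call holds. Over the settings tried its difference ranged from -3.30 to -2.54. Its gene overlaps the long non-coding RNA MIR4527HG, which had no named probe set. MIR4526 stood at 4.07 and 3.89 in ORC2B2 and at 5.22 and 5.52 in ORC2BP8, a difference of -1.39 (SE 0.22, limma adjusted p = 0.0347). In this case ORC2B2 was the low line, below the other 6 arrays (5.05 to 5.57), and the call was lost without any 1 of the ORC2, ORC1B14 or ORC1BP32 arrays. MIR4526 lies within LDLRAD4, which encodes a membrane protein that restrains TGF-beta signalling. LDLRAD4 stood at 4.64 and 4.70 in ORC2B2 and 4.87 and 4.40 in ORC2BP8, with overlapping lines and a difference of 0.04 (limma adjusted p = 1.0).

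Of the 15 genes called higher in ORC2B2, 9 lie in 1 stretch of chromosome 16 and 6 elsewhere. RNF182, a ubiquitin ligase gene on chromosome 6, stood at 8.36 and 8.02 in ORC2B2 and at 6.82 and 6.33 in ORC2BP8, a difference of 1.62 (SE 0.26, limma adjusted p = 0.0355). The lines did not overlap, and ORC2BP8 lay below the other 3 lines (6.99 to 8.64). BEND6, also on chromosome 6, stood at 5.53 and 5.42 against 4.19 and 3.73, a difference of 1.51 (limma adjusted p = 0.0227), with ORC2BP8 below the other lines. Both lost their calls without any 1 of the ORC2 arrays, and RNF182 also without either WT array.

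IL17RB, a receptor for interleukin 25, stood at 7.88 and 7.91 in ORC2B2 and at 6.41 and 6.43 in ORC2BP8. It was the 1 gene of these 15 in which only ORC2B2 lay outside the other 6 arrays (5.90 to 7.35). Its difference was 1.48 (limma adjusted p = 0.0437), and the call was lost after centring each array on its median, with no filter on dim probe sets, and without any 1 of the ORC2, ORC1B14 or ORC1BP32 arrays. ZBTB38, a zinc finger protein that binds methylated DNA, stood at 6.89 and 6.52 against 5.43 and 5.41, a difference of 1.29 (limma adjusted p = 0.0251). Its lines lay on opposite sides of the other 6 arrays (5.82 to 6.40).

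CNTN1, a contactin that acts in cell adhesion of neurons, stood at 5.22 and 5.14 in ORC2B2 and 4.07 and 3.68 in ORC2BP8, a difference of 1.31 (limma adjusted p = 0.0292). Both lines lay below the other 3 (5.23 to 6.01), ORC2BP8 the further. ZNF614, a zinc finger gene of chromosome 19, stood at 5.89 and 5.61 against 4.19 and 4.44, a difference of 1.44 (limma adjusted p = 0.0430). ORC2B2 lay within the range of the other lines and ORC2BP8 below it. ZBTB38, CNTN1 and ZNF614 each lost the call without any 1 ORC2 array and without either ORC1BP32 array. ZNF614 also lost it without either WT array, after centring and with no filter on dim probe sets.

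Genes were next put in order along each chromosome, and the median difference was taken over every 25 neighbouring tested genes. Where that median passed 0.3 in size in both replicates, overlapping windows were joined into a run. This gave 3 runs with 238 genes in all: a long one on chromosome 16, higher in ORC2B2, and shorter ones on chromosomes 13 and 18, lower in ORC2B2. They held 10 of the 24 called genes. The runs were chosen by the difference between the ORC2 lines in both replicates, so the counts and shares of their genes describe them and test nothing.

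**Figure D2:**
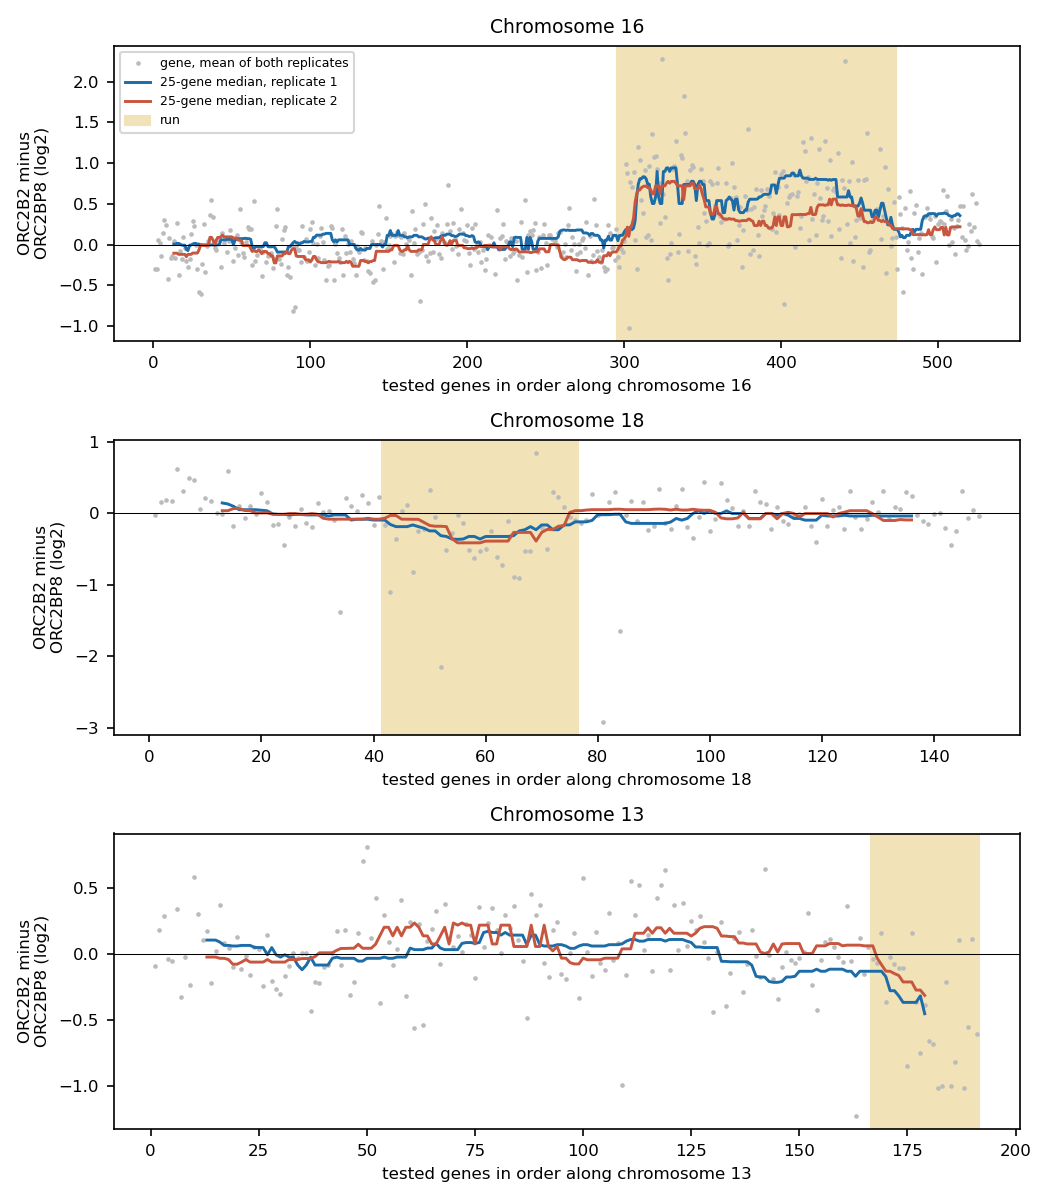
The ORC2B2 minus ORC2BP8 difference (log2) is drawn against the order of tested genes along chromosomes 16, 18 and 13. Grey points are genes, lines are medians over 25 neighbouring genes in replicate 1 (blue) and replicate 2 (red), and shaded spans are the runs, in which both lines leave 0 together.

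The run on chromosome 16 went from ZNF267 to ADAD2 and held 178 of the 526 tested genes of that chromosome. Its median difference was 0.46, with 0.59 in replicate 1 and 0.37 in replicate 2. Of its genes, 128 (71.9%) were higher in ORC2B2 in both replicates, against 26.9% of all genes. At an unadjusted p under 0.05, 79 were higher and 1, NETO2, was lower (3.01% and 2.45% of all genes). The other 348 tested genes of chromosome 16, on both sides of the run, had a median of 0.01. This does not mean that the shift stopped at ADAD2. A looser cut, with a median that had to pass 0.2, also gave runs on chromosomes 5, 11 and 22, which had none at 0.3. On chromosome 16 it gave a further run of 41 genes, from COX4I1 to DRC4, with a median of 0.25. At the other end the first genes, ZNF267 to TP53TG3HP, differed by only -0.28 to 0.05, so the edges are those of the windows. Set against WT, the median of the run was 0.09 and 0.07 in ORC2B2 and -0.38 and -0.31 in ORC2BP8, for replicates 1 and 2, and between 0.12 and 0.14 in the ORC1 lines. These comparisons share the WT arrays. ORC2BP8 was thus the line that stood apart, and it lay below the other 6 arrays for 43.8% of the genes in the run, against 4.29% of all genes.

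The difference in the run was larger for brighter genes. The 74 genes with a mean level of at least 7 had a median of 0.75, and 91.9% of them were higher in ORC2B2 in both replicates. The 65 genes between 5 and 7 had a median of 0.39, and the 39 genes under 5, near the array medians, had a median of 0.02. Over all genes with a mean level of at least 7 the median was -0.00. Whether the low median of dim genes reflects their signal or their RNA was not tested.

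Of the called genes in this run, CRNDE stood at 5.96 and 6.20 in ORC2B2 and at 3.74 and 3.86 in ORC2BP8. ORC2BP8 was low on both arrays, below its array medians, while the other 3 lines ranged from 5.12 to 6.90. The difference was 2.28 (SE 0.33, limma adjusted p = 0.0243). MLKL, the pseudokinase that breaks the plasma membrane in necroptosis, stood at 6.83 and 6.84 in ORC2B2 and at 4.33 and 4.84 in ORC2BP8, a difference of 2.25 (SE 0.26, limma adjusted p = 0.00777). ORC2B2 lay within the range of the other lines (6.41 to 6.96), and ORC2BP8 4.75-fold lower than ORC2B2. CRNDE lost its call without any 1 ORC2 array, and MLKL without ORC2B2 replicate 2 or ORC2BP8 replicate 1.

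AARS1, the enzyme that loads alanine onto its tRNA, stood at 10.69 and 11.03 in ORC2B2 and at 9.61 and 9.59 in ORC2BP8, a difference of 1.26 (SE 0.16, limma adjusted p = 0.0132). CHD9, a chromatin remodeller, stood at 8.29 and 8.40 against 6.94 and 7.02, a difference of 1.36 (limma adjusted p = 0.0243). In both genes the ORC2BP8 arrays were low and lay below all the other arrays. MON1B, which helps to activate RAB7 on late endosomes, stood at 6.62 and 6.33 against 4.99 and 5.21, a difference of 1.37 (limma adjusted p = 0.0227). COG4, a subunit of a tethering complex of the Golgi, stood at 7.85 and 7.79 against 6.44 and 6.58, a difference of 1.31 (limma adjusted p = 0.0327). Again ORC2BP8 lay below the other lines and ORC2B2 did not leave their range on the upper side. CHD9, MON1B and COG4 lost their calls without any 1 ORC2 array, COG4 also after centring and without either ORC1BP32 array, and AARS1 without ORC2B2 replicate 2 or either ORC2BP8 array.

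PHLPP2, a phosphatase that acts on AKT, and CNEP1R1, a regulator of a phosphatase of the nuclear envelope, differed in that both lines left the range of the others. PHLPP2 stood at 8.50 and 8.24 in ORC2B2 and 7.11 and 7.08 in ORC2BP8, around a range of 7.49 to 8.05. CNEP1R1 stood at 8.30 and 8.16 and at 7.10 and 6.96, around a range of 7.74 to 8.05. The differences were 1.27 and 1.20 (limma adjusted p = 0.0243 and 0.0292), and both calls were lost without any 1 ORC2 array, that of CNEP1R1 also without any 1 WT or ORC1BP32 array. RBL2, a relative of the retinoblastoma protein that represses cell cycle genes, and FHOD1, a formin that acts on actin, lie in the same run and were not called. RBL2 stood at 7.34 and 7.38 against 6.45 and 6.13, a difference of 1.07 (limma adjusted p = 0.0794). FHOD1 stood at 6.13 and 6.42 against 4.52 and 5.20, a difference of 1.42 (limma adjusted p = 0.0674).

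A few genes of the run went the other way. NETO2, an auxiliary subunit of glutamate receptors, stood at 7.05 and 7.73 in ORC2B2 and at 8.12 and 8.69 in ORC2BP8, a difference of -1.02 (limma adjusted p = 0.846). HAS3, a hyaluronan synthase, stood at 5.95 and 5.90 against 6.36 and 6.96, a difference of -0.73 (limma adjusted p = 0.914). In both the lines did not overlap, as for 32.3% of all genes, and neither was called.

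The metallothioneins, small proteins that bind zinc and copper, form a cluster within this run. They were grouped after their values were seen. MT1F stood at 6.89 and 6.81 in ORC2B2 and at 5.35 and 4.70 in ORC2BP8, a difference of 1.82 (SE 0.24, limma adjusted p = 0.0176), and lost its call without either ORC2B2 array or ORC2BP8 replicate 2. MT1X stood at 9.69 and 9.44 against 7.81 and 8.57, a difference of 1.37, and MT2A at 9.56 and 8.99 against 8.26 and 8.08, a difference of 1.10. The difference of MT1E, at 6.54 and 6.07 against 5.19 and 5.30, was 1.07. In all of these the ORC2B2 arrays were the higher ones and the lines did not overlap, as for 32.3% of all genes. MT1X, MT2A and MT1E were not called (limma adjusted p = 0.102, 0.120 and 0.185). Of the 6 metallothionein genes tested, 5 were higher in ORC2B2 in both replicates, against 26.9% of all genes and 71.9% of the run. The run was chosen by this direction, so the count describes these genes and tests nothing. The fifth was MT3, at 0.13, and MT4 was the exception.

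Metallothionein promoters are known for metal response elements, through which the zinc-sensing factor MTF1 acts. The 250 bases before the start of MT1X (chr16:56682220-56682469, plus strand) and of MT2A (chr16:56608334-56608583, plus strand), from RefSeq (GRCh38.p14), are shown with each match to the core of that element, TGCACNC or TGCGCNC on either strand, in capitals.
MT1X promoter: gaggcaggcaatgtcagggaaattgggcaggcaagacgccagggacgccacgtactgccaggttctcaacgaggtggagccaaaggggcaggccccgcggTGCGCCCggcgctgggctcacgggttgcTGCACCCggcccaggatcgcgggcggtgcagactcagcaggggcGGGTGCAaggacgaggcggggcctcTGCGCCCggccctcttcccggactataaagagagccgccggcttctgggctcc
MT2A promoter: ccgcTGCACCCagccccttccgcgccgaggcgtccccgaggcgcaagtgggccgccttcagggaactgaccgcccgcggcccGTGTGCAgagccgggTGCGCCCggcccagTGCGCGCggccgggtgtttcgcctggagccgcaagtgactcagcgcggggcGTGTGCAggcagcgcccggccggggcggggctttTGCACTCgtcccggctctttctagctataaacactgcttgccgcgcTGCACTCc
The MT1X window held 4 matches and the MT2A window 7. The window of MT4, which was not higher in ORC2B2, held 3, and those of MT1B and MT1H, which were not tested, held 3 and 8. Of 35116 promoter windows of this length, 24.8% held any match, 0.37% held at least 4 and 0.0313% held at least 7. These matches describe the letters of the windows, and no binding was measured.

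The run on chromosome 13 went from IRS2 to CHAMP1 and held 25 genes, with a median of -0.36 (-0.45 in replicate 1 and -0.31 in replicate 2). Of these, 16 (64.0%) were lower in ORC2B2 in both replicates, against 28.3% of all genes. Against WT the median was -0.45 and -0.48 in ORC2B2 and -0.09 and 0.02 in ORC2BP8, with shared WT arrays, so here ORC2B2 was the line furthest from WT. The ORC1 lines stood at -0.10 and -0.30 (ORC1B14) and at -0.09 and 0.03 (ORC1BP32). ORC2B2 lay below the other 6 arrays for 44.0% of the genes, against 3.72% of all genes. At an unadjusted p under 0.05, 11 genes were lower and 0 higher (2.45% and 3.01% of all genes), and 0 were called.

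RASA3, a GTPase-activating protein for RAS, stood at 6.29 and 6.28 in ORC2B2 and at 7.27 and 7.33 in ORC2BP8, a difference of -1.01 (SE 0.18, limma adjusted p = 0.0534). TFDP1, the partner of E2F factors in DNA binding, stood at 6.50 and 6.61 against 7.35 and 7.77, a difference of -1.0 (limma adjusted p = 0.109). Both genes were low in ORC2B2 on either array, below all other arrays, without overlap between the lines (32.3% of all genes had none). GAS6, a ligand of TAM receptor kinases, stood at 6.55 and 6.52 against 7.58 and 7.49, a difference of -1.0 (limma adjusted p = 0.455). SLC9D1 stood at 7.28 and 7.25 against 8.40 and 8.16, a difference of -1.01 (limma adjusted p = 0.0833). The last 2 were likewise lower in ORC2B2 on both arrays and not called.

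The run on chromosome 18 went from GATA6 to PSTPIP2 and held 35 genes, with a median of -0.25 (-0.25 and -0.22 in replicates 1 and 2). Of these, 23 (65.7%) were lower in ORC2B2 in both replicates and 10 were lower at an unadjusted p under 0.05, against 28.3% and 2.45% of all genes. DSC3 was the 1 called. CABLES1, which binds cyclin-dependent kinases, stood at 5.67 and 6.96 in ORC2B2 and at 7.01 and 7.83 in ORC2BP8, a difference of -1.10 (limma adjusted p = 0.634). RPRD1A, a protein that binds the tail of RNA polymerase II, stood at 7.79 and 7.95 against 8.74 and 8.81, a difference of -0.91 (limma adjusted p = 0.317). The lines did not overlap for either gene, as for 32.3% of all genes. FHOD3, a formin, went against the run, at 7.04 and 6.26 against 5.81 and 5.79, a difference of 0.85 (limma adjusted p = 0.692). Against WT the median of the run was -0.17 and -0.39 in ORC2B2, 0.07 and -0.12 in ORC2BP8 and between -0.20 and -0.07 in the ORC1 lines. MIR4526, MIR4527 and SMAD7 lie on the same chromosome outside this run, but with a median that had to pass 0.2 the run went from GATA6 to SMAD7, with 43 genes, and took in the last 2.

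Called genes were also placed against the 6 arrays of the other 3 lines. For 14 of the 24 (58.3%) only ORC2BP8 lay outside their range on both arrays, against 6.71% of all genes. For 4 (16.7%) only ORC2B2 did, against 5.49%, and for 4 more the lines lay on opposite sides, against 0.194%. In 1 gene both lay on the same side and in 1 neither lay outside. The called genes were chosen by the difference between the ORC2 lines, so these shares describe them and test nothing. Against WT itself, whose arrays both comparisons share, limma called 36 genes for ORC2B2 (0.333%) and 101 for ORC2BP8 (0.935%). Among the 15 genes higher in ORC2B2, ORC2BP8 was the line outside for 10. Among the 9 lower, it was ORC2BP8 for 4 and ORC2B2 for 3.

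**Figure D3:**
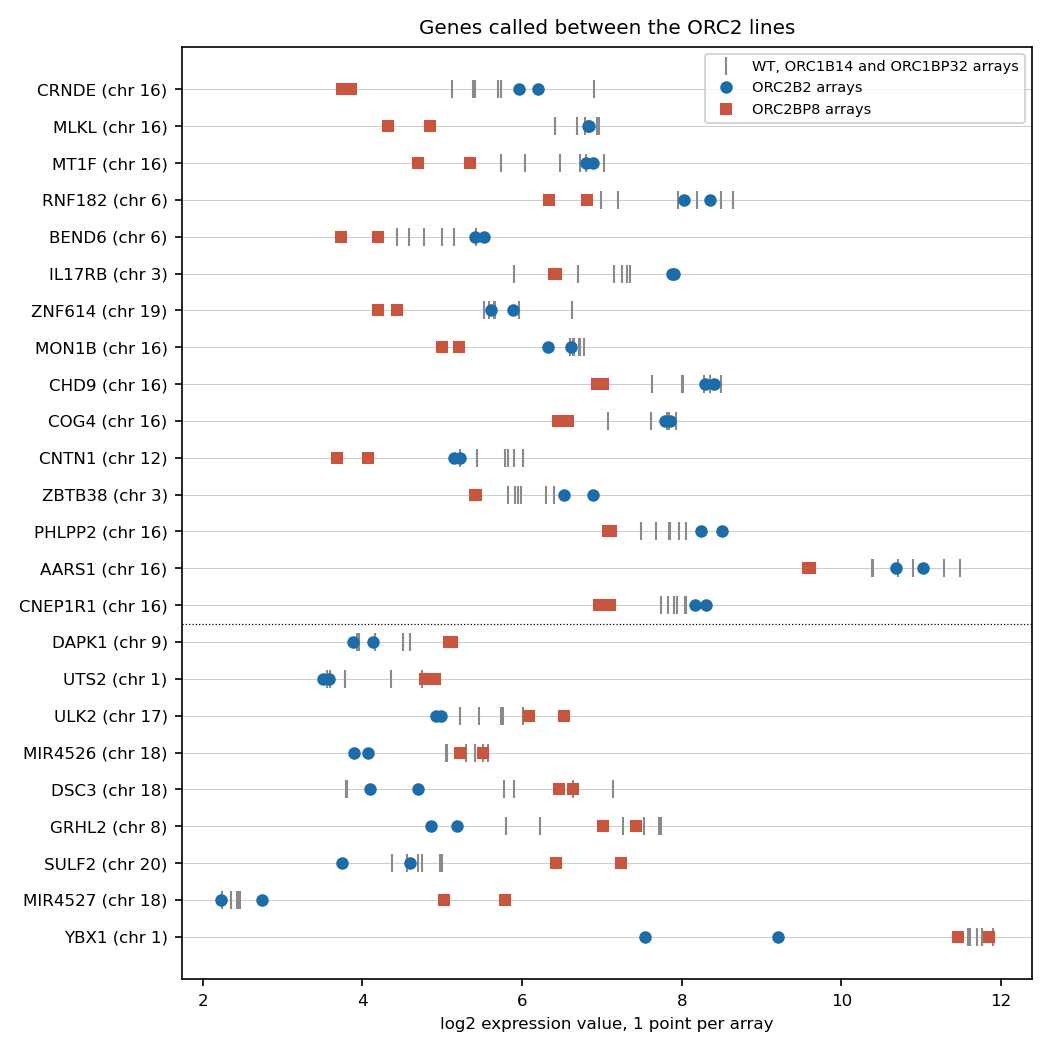
The log2 expression value of each called gene is drawn for each array: blue circles for ORC2B2, red squares for ORC2BP8 and grey ticks for WT, ORC1B14 and ORC1BP32. Genes above the dotted line are higher in ORC2B2, most with the red squares to the left of all ticks, and in YBX1 the blue circles stand to the left of ticks that span 11.58 to 11.90.

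Gene lists were then described by their counts, beside all genes tested, whose median difference was -0.01 (0.00 in replicate 1 and -0.01 in replicate 2). Of all genes, 26.9% were higher and 28.3% lower in ORC2B2 in both replicates, and 3.01% were higher and 2.45% lower at an unadjusted p under 0.05. The counts of every list below stand beside these shares. Of 23 tested genes of epithelial junctions, 2 were called, both lower in ORC2B2 (GRHL2 and DSC3). Called lower were 0.0834% of all genes. Of these 23, 11 (47.8%) were lower in both replicates and 3 higher, and the median was -0.31. That median was -0.56 in replicate 1 and -0.02 in replicate 2, so the list as a whole was lower in replicate 1 alone. ST14, the membrane protease matriptase, stood at 6.31 and 7.40 in ORC2B2 and at 8.67 and 8.34 in ORC2BP8, a difference of -1.65 (limma adjusted p = 0.109). OVOL1, a zinc finger factor of epithelial cells, stood at 5.51 and 5.97 against 6.85 and 6.44, a difference of -0.91 (limma adjusted p = 0.229). CLDN7, a claudin of tight junctions, stood at 9.02 and 9.34 against 10.39 and 9.54, a difference of -0.78 (limma adjusted p = 0.858). In each of these 3 ORC2B2 lay below ORC2BP8 and below the other 6 arrays, and the difference was larger in replicate 1. ESRP2, a splicing factor of epithelial cells that lies in the chromosome 16 run, went the other way, at 8.42 and 8.50 against 7.54 and 7.97, a difference of 0.71 (limma adjusted p = 0.410).

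Among 9 tested genes of mesenchymal transition 0 were called by limma, and 4 were higher and 1 lower in ORC2B2 at an unadjusted p under 0.05 (3.01% and 2.45% of all genes). ZEB1, a repressor of epithelial genes, stood at 6.09 and 5.09 in ORC2B2 and at 4.63 and 4.55 in ORC2BP8, a difference of 1.0 (limma adjusted p = 0.498). VIM, the intermediate filament vimentin, stood at 5.80 and 5.96 against 5.07 and 5.35, a difference of 0.67 (limma adjusted p = 0.557). ORC2B2 was the higher line for both, without overlap (32.3% of all genes had none). LOXL2, an enzyme that cross-links collagen, stood at 8.50 and 7.86 against 7.34 and 6.88, a difference of 1.07, and S100A4, a calcium-binding protein, at 5.86 and 5.90 against 5.42 and 3.90, a difference of 1.22 (limma adjusted p = 0.444 and 0.489). FN1, the matrix protein fibronectin, went the other way, at 7.27 and 6.69 against 8.27 and 8.12, a difference of -1.21 (limma adjusted p = 0.290).

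Of 15 keratins and keratin-associated genes 0 were called by limma, with 3 higher and 1 lower at an unadjusted p under 0.05 (3.01% and 2.45% of all genes). KRT23 stood at 6.88 and 8.66 in ORC2B2 and at 6.35 and 5.50 in ORC2BP8. Its difference of 1.85 (limma adjusted p = 0.290) was made of 0.53 in replicate 1 and 3.17 in replicate 2. KRT20, a keratin of differentiated intestinal cells, stood at 5.55 and 6.58 against 4.48 and 4.93, a difference of 1.36 (limma adjusted p = 0.140). KRT23 and KRT20 are also 2 of the colorectal markers, whose 11 tested members had a median difference of 0.01. KRTAP2-4 stood at 5.99 and 4.45 against 3.77 and 2.49, a difference of 2.09 (limma adjusted p = 0.158), with both ORC2BP8 arrays below the array median. Of the 15 genes, 8 were higher and 4 lower in ORC2B2 in both replicates. KRT80 was the furthest lower, at 6.21 and 5.39 against 7.37 and 7.19, a difference of -1.47 (limma adjusted p = 0.203). KRTAP2-3 was high in both ORC2 lines, at 9.18 and 9.12 in ORC2B2 and 9.66 and 9.40 in ORC2BP8, with the other lines at 5.80 to 8.53, and the ORC2 lines differed by -0.39 (limma adjusted p = 1.0).

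In the TGF-beta and BMP pathway, with 17 genes tested, 0 were called by limma and 3 were lower in ORC2B2 at an unadjusted p under 0.05 (2.45% of all genes). SMAD7, an inhibitor of the receptors that TGF-beta itself induces, stood at 4.98 and 5.53 in ORC2B2 and at 6.93 and 6.87 in ORC2BP8, a difference of -1.64 (SE 0.28, limma adjusted p = 0.0532). BAMBI, a decoy receptor of the pathway, stood at 6.12 and 6.54 against 7.68 and 8.25, a difference of -1.63 (SE 0.28, limma adjusted p = 0.0534). For both genes ORC2BP8 was high and lay above the other 6 arrays, while ORC2B2 lay within their range. BMP4, a ligand, stood at 10.69 and 9.95 against 11.30 and 10.57, a difference of -0.61 with overlapping lines, and the target THBS1 at 9.56 and 8.52 against 8.56 and 7.91, a difference of 0.80 (limma adjusted p = 0.874 and 0.937). The median of the list was -0.05.

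Of 13 genes of synaptic and vesicle traffic 0 were called by limma, with 3 higher in ORC2B2 at an unadjusted p under 0.05 (3.01% of all genes). SYT1, the calcium sensor of vesicle release, stood at 6.60 and 6.05 in ORC2B2 and at 5.03 and 4.76 in ORC2BP8, a difference of 1.43 (limma adjusted p = 0.168). ORC2BP8 lay below the other lines (5.68 to 7.90), and ORC2B2 within their range. SYTL2, which links RAB27 to vesicles, stood at 7.84 and 7.64 against 5.76 and 6.84, a difference of 1.44 (limma adjusted p = 0.412). For this gene ORC2B2 lay above the other lines (4.52 to 5.94).

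Of 24 interferon-stimulated genes 0 were called by limma, 14 (58.3%) were higher in ORC2B2 in both replicates and 3 (12.5%) lower, against 26.9% and 28.3% of all genes, with a median of 0.19 (0.35 and 0.15 in replicates 1 and 2). IFITM2, a membrane protein that blocks virus entry, stood at 9.94 and 10.50 in ORC2B2 and at 9.46 and 8.78 in ORC2BP8, a difference of 1.10 (limma adjusted p = 0.131). Its neighbour in the family, IFITM1, stood at 6.61 and 6.78 against 6.27 and 5.69, a difference of 0.71 (limma adjusted p = 0.920). The 2 genes are close paralogs, and the overlap of their probes was not tested. IFIT2 stood at 4.10 and 4.23 against 3.70 and 3.37, with both ORC2BP8 arrays below the array median, and DDX60 at 6.43 and 6.05 against 5.64 and 5.59, differences of 0.64 and 0.63 (limma adjusted p = 0.750 and 0.811). All of these were higher in ORC2B2 on both arrays. A separate list, of NF-kB and inflammatory cytokines, had 8 tested genes and 0 calls by limma. Of these, 3 were higher and 2 lower in ORC2B2 in both replicates, with a median of 0.12. Its member LIF, a cytokine of the interleukin 6 family, stood at 7.88 and 7.58 against 6.43 and 5.32. The difference was 1.86 (limma adjusted p = 0.185), with ORC2BP8 below the other lines.

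The 16 tested genes of amino acid supply and tRNA charging had 1 call, AARS1. Of these 16, 14 (87.5%) were higher in ORC2B2 in both replicates and 0 lower, against 26.9% and 28.3% of all genes. The median was 0.25, with 0.27 in replicate 1 and 0.22 in replicate 2. Among these 16 the steps were small apart from AARS1, which lies in the chromosome 16 run. The serine synthesis enzyme PSAT1 differed by 0.43, and the synthetases YARS1 and WARS1 by 0.37 and 0.34. A dimmer probe set of WARS1 went the other way, at -0.63. The synthetase gene KARS1, which lies in the same run but not in this list, differed by 0.81 (limma adjusted p = 0.557). PSAT1 stood at 10.77 and 11.11 in ORC2B2 and at 10.33 and 10.67 in ORC2BP8 (limma adjusted p = 1.0). Among 12 genes of the unfolded protein and ATF4 response, 0 were called by limma. Its members SEL1L, which acts in the removal of misfolded proteins, and ASNS, which makes asparagine, were the higher ones, by 0.77 and 0.64 (limma adjusted p = 0.386 and 0.856).

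**Figure D4:**
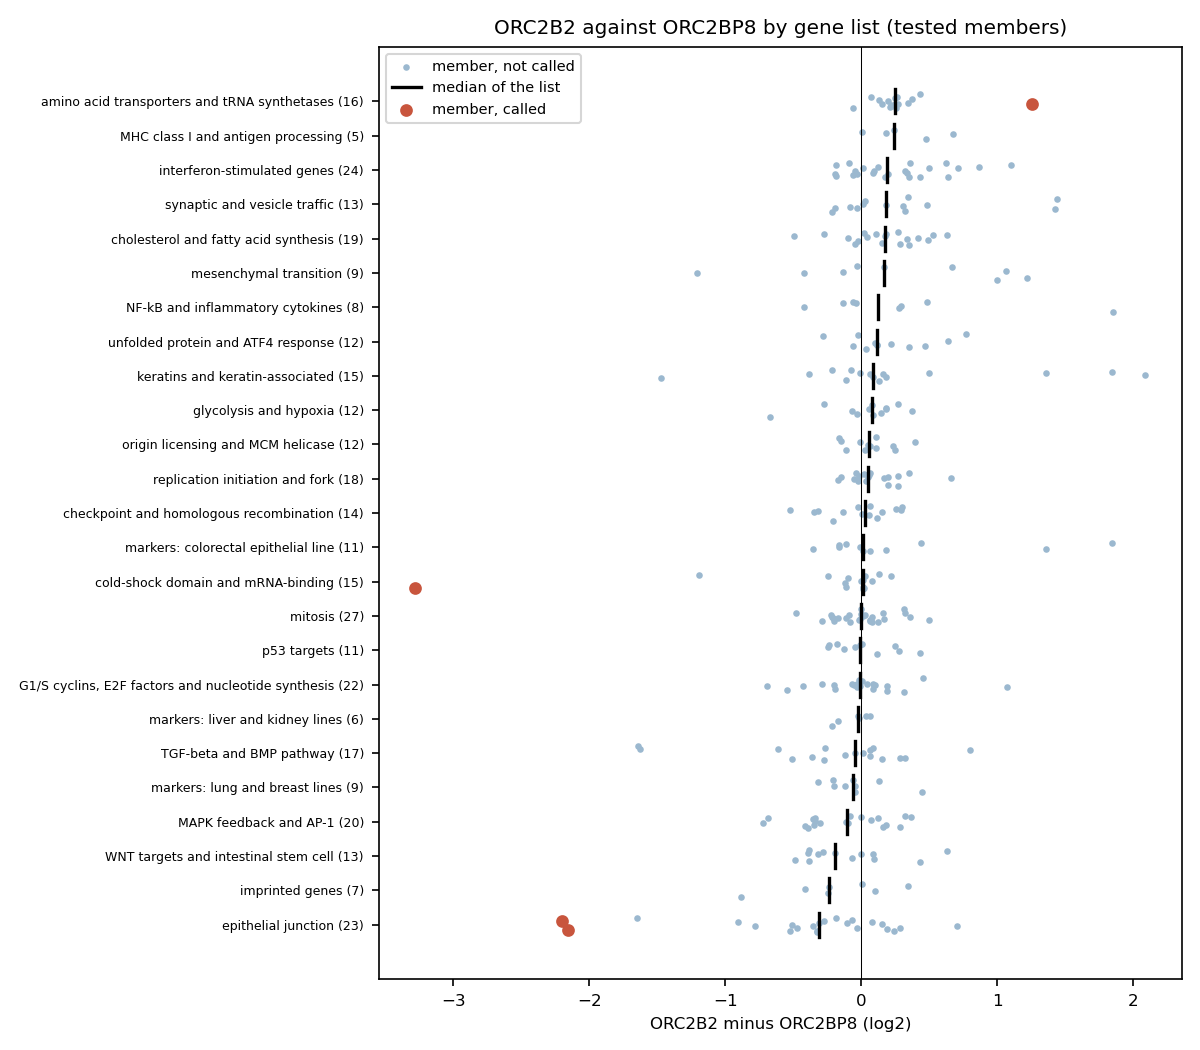
The ORC2B2 minus ORC2BP8 difference (log2) of every tested member is drawn for each list with at least 5 tested genes, with the number of members in parentheses, a bar at the median and larger red points for called genes. The medians run from -0.31 for epithelial junctions to 0.25 for amino acid supply and tRNA charging, and 4 members are called.

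No gene of the DNA replication lists passed the test. Of 12 genes of origin licensing and the MCM helicase 0 were called by limma and 0 had an unadjusted p under 0.05. Their median was 0.06, made of 0.26 in replicate 1 and -0.08 in replicate 2. MCM6, a helicase subunit, stood at 9.10 and 9.38 in ORC2B2 and at 8.41 and 9.28 in ORC2BP8, a difference of 0.40, the largest of these 12. CDT1, which brings the helicase to origins, stood at 8.17 and 8.32 against 7.71 and 8.28, a difference of 0.25 (limma adjusted p = 1.0 for both). In each the ORC2BP8 array of replicate 1 was the low one. The 18 genes of replication initiation and the fork had 0 calls, and a median of 0.05 (0.24 in replicate 1 and -0.11 in replicate 2). Among them GINS2, a helicase cofactor, stood at 8.13 and 8.41 against 7.01 and 8.21, a difference of 0.66 (limma adjusted p = 1.0). Both GINS2 and CDT1 lie on chromosome 16 past ADAD2, outside the run. With a median that had to pass 0.2, both fell in runs higher in ORC2B2.

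In the cell cycle lists 0 genes were called by limma. The 22 genes of the G1/S transition had a median of -0.01 and the 27 genes of mitosis one of -0.00. CCNE1, the cyclin that drives entry into S phase, stood at 8.20 and 8.49 in ORC2B2 and at 8.67 and 9.11 in ORC2BP8, a difference of -0.55 (limma adjusted p = 0.741). RB1, the retinoblastoma protein, stood at 9.70 and 9.19 against 9.29 and 8.70, a difference of 0.45 with overlapping lines (limma adjusted p = 0.960). The kinetochore gene NDC80 and the mitotic cyclin CCNB2 were higher in ORC2B2 by 0.50 and 0.36 (limma adjusted p = 0.931 and 0.910). The checkpoint clamp gene RAD9A stood at 6.58 and 6.92 against 7.26 and 7.28, a difference of -0.52 (limma adjusted p = 0.683), with ORC2BP8 above the other 6 arrays. The 11 p53 targets tested had a median of -0.01.

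Genes of cholesterol and fatty acid synthesis, 19 in number, had 0 calls by limma and a median of 0.17, and 10 were higher in ORC2B2 in both replicates and 3 lower. STARD4, a sterol carrier, stood at 8.57 and 8.35 in ORC2B2 and at 7.91 and 7.74 in ORC2BP8, a difference of 0.63 (limma adjusted p = 0.870). The sterol enzymes MSMO1, HMGCS1 and IDI1 were higher by 0.53, 0.49 and 0.42, and the desaturase SCD by 0.33, none of them called (limma adjusted p = 0.937, 1.0, 0.914 and 0.846). The member of this list furthest lower in ORC2B2, not named here, differed by -0.50. Of 13 WNT targets and intestinal stem cell genes 0 were called by limma, and the median was -0.19. SOX9, a transcription factor of intestinal crypts, stood at 9.92 and 9.73 against 9.61 and 8.79, a difference of 0.63, and the WNT inhibitor DKK1 at 11.07 and 11.20 against 11.66 and 11.38, a difference of -0.39 (limma adjusted p = 0.871 and 0.789).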

How the data were processed

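The deposited table gives log2 values for 53617 probe sets on every array. The authors used Affymetrix Expression Console, per the submitters' processing notes. The normalization was not given in the sources used here, nor was the genome build. Values were used as deposited. The platform's annotation named 16098 probe sets with 1 symbol and 0 with several, and 37519 stayed unnamed. Probe sets at or above the array median on at least 2 arrays were kept (11554), and 421 genes with more than 1 were each represented by the brightest on average.

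Differences were tested with limma 3.58.1 in R 4.3.3 (lmFit on 5 line means over 10 arrays, contrast ORC2B2 minus ORC2BP8, eBayes with trend, 5 residual and 5.83 prior degrees of freedom), two-sided, with Benjamini-Hochberg adjustment over 10797 genes and a threshold of 0.05. The fit was tested on simulated data, and other normalizations, filters, fits and left-out arrays were tried as alternatives. The text names called genes, members of the lists with larger differences (not always the largest), run members, and genes known from earlier results. These, the gene lists and the compared lines were chosen with earlier results of these data known. Gene order, promoters and microRNAs are from RefSeq. Arrays give no read depth, and their number limits the precision.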

Additional observations from a re-analysis of the deposited data

How the results depend on the processing

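The count of 24 genes called between ORC2B2 and ORC2BP8 was 31 after quantile normalization, 21 after centring each array, 22 without a filter on dim probe sets, 25 with a stricter filter, 24 with the mean over probe sets and 26 without the intensity trend. It became 0 with only the 4 ORC2 arrays in the limma fit (547 at an unadjusted p under 0.05) and ranged from 2 (without ORC2BP8 replicate 1) to 23 (without either ORC1B14 array) when 1 array was left out. With the replicate number as a block in the fit, 94 genes were called, among them all 24, and 257 with the replicate block on the 4 ORC2 arrays alone. Of the genes named as not called, SMAD7, BAMBI, RBL2, FHOD1, RASA3, TFDP1, SLC9D1, MT1X, MT2A, ST14, KRT20, KRT80, KRTAP2-4, LIF, EDN1, CAMK2D, BMAL2, CNTNAP3, CNTNAP3B and PEG10 were called with the block on all arrays. The deviations of same-numbered arrays from their line means correlated at 0.0812 to 0.568 over the 10 pairs of lines, 0.382 for the ORC2 lines, and all 10 arrays correlated best with arrays of their own number. The lowest value did not pass the limit set for pairing, so the block was not adopted. Genes in runs lower in ORC2B2 numbered 149 in place of 60 when the median had to pass 0.2. Genes in runs higher in ORC2B2 numbered 232 then, and 163 with 15 genes per window. On leaving out 1 array a sign turned only in genes that were not called, and their differences ranged from -0.39 to 0.30 for ADGRF1 (0.06 without ORC2B2 replicate 1), from -0.035 to 0.53 for CDT1, from -0.20 to 0.27 for LDLRAD4, from -0.039 to 0.83 for MCM6, from -0.017 to 0.29 for MT3 and from -0.29 to 0.52 for TRIB3. The cause of these changes was not tested. UTS2, KRTAP2-4 and IFIT2 were below the array median on several arrays, and MIR4527 on all but the ORC2BP8 arrays. CRNDE was below it on both ORC2BP8 arrays, SULF2 and DAPK1 on ORC2B2 replicate 1, and BEND6 and CNTN1 on ORC2BP8 replicate 2. This limits what the size of these differences can show.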

Other observations

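Several genes outside the lists differed by more than 1 on the log2 scale in both replicates without being called, and were picked here after their values were seen. EDN1, which encodes the vasoconstrictor endothelin 1, stood at 6.91 and 6.22 in ORC2B2 and at 5.00 and 3.93 in ORC2BP8, a difference of 2.10 (limma adjusted p = 0.102). CNTNAP3B, a contactin-associated protein, stood at 8.13 and 7.44 against 6.26 and 5.99, a difference of 1.66 (limma adjusted p = 0.0612). Its near-identical copy CNTNAP3 differed by 1.64 (limma adjusted p = 0.106), and signal of these copies cannot be told apart. CAMK2D, a calcium/calmodulin-dependent kinase, stood at 8.35 and 7.95 against 6.81 and 6.83, a difference of 1.33 (limma adjusted p = 0.0794), with ORC2BP8 below the other 6 arrays. BMAL2, a circadian transcription factor, was lower in ORC2B2, at 5.31 and 5.73 against 7.03 and 7.36, a difference of -1.68 (limma adjusted p = 0.0729).

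ADGRF1 and TRIB3 each had similar values in the ORC2 lines, lower than in WT. Their means over all 10 arrays were 5.01 and 6.95, so that on average the ORC1 lines were also below WT. The low values were thus not particular to the ORC2 lines. ADGRF1, an adhesion receptor, stood at 4.25 and 4.47 in ORC2B2, at 4.75 and 4.07 in ORC2BP8 and at 7.36 and 6.76 in WT, and the ORC2 lines differed by -0.05 (SE 0.30, limma adjusted p = 1.0). TRIB3, a pseudokinase of the ATF4 response, stood at 6.38 and 7.18, 6.55 and 6.78, and 8.28 and 8.40 in the same order, a difference of 0.12 (SE 0.25, limma adjusted p = 1.0). LURAP1L was also lower than WT in both, but the ORC2 lines did not overlap. It stood at 5.89 and 5.37 in ORC2B2, 4.65 and 4.68 in ORC2BP8 and 6.73 and 7.88 in WT. The difference of 0.97 between the ORC2 lines was not called (limma adjusted p = 0.617). Its mean over all 10 arrays was 5.87, so on average the ORC1 lines were below WT here too. Of the imprinted genes, 7 of which were tested, 0 were called by limma. PEG10, which derives from a retrotransposon, stood at 6.03 and 6.25 in ORC2B2 and at 7.10 and 6.96 in ORC2BP8, a difference of -0.89 (limma adjusted p = 0.109), and GRB10 differed by -0.42 (limma adjusted p = 0.937).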
